A study of Mus musculus with 6 samples.

Results

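The 34 genes described here mark macrophages and other white blood cells, and they were taken by name as genes of that lineage, with no threshold on a measured value. All 34 were found among the 22394 genes of the deposited expression table. RNA-seq of the whole kidney at E13.5 measured them in mouse embryos. The mutant group was 3 libraries labelled Foxd1Cre;Ptch1 (flox/-), in which 1 allele of Ptch1 was flanked by loxP sites and the other was null. The control group was 3 libraries of littermates labelled Ptch1 (flox/+), with 1 floxed and 1 wild-type allele and no Cre in the label. Foxd1Cre expresses the recombinase in the stromal progenitors of the kidney, which are not the source of its macrophages. The null allele is in every cell of the mutants, blood cells included, so a loss of 1 copy there and the loss of both copies in stroma cannot be told apart. The labels do not say whether a library was 1 embryo, so the p-values measure the spread between these samples.

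Macrophages reach the embryonic kidney through the blood, from the yolk sac first and later from the fetal liver, and stay as resident cells. They need the transcription factor PU.1 and signals through the colony-stimulating factor 1 receptor. They engulf dying cells, secrete the complement protein C1q, and carry Fc and lectin receptors whose signals pass through small adaptors such as TYROBP and FCER1G. Ptch1 is the receptor that holds the Hedgehog pathway off in the absence of ligand.

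PU.1, the product of Spi1, binds a core of the letters GAGGAA next to the start of many macrophage genes. These letters were looked for on both strands, with overlapping matches counted, in windows from 250 bases before to 50 bases after RefSeq starts (GRCm38.p6). Of the 34 genes, 25 had such a window, and 19 of the 25 (76%) held the core. The core was in a window of 31.3% of all 27025 genes. The letters TGTGGT, bound by RUNX factors, were in 7 of the 25 (28%), against 18.9% of all genes. TTGCNNAA, a C/EBP motif, was in 5 (20%), against 12.2% of all genes. TGANTCA, the AP-1 motif, was in 4 (16%), against 8.97% of all genes. A match describes letters and is not evidence of binding. The stretches below belong to those genes with an unadjusted p under 0.05 that had a window, and they are given 5′ to 3′ on the gene's strand, ending before the gene as RefSeq or GENCODE annotates it. Capitals mark the PU.1 core on either strand, TTCCTC being its reverse complement.
C1qb, chr4:136886201-136886450, minus strand: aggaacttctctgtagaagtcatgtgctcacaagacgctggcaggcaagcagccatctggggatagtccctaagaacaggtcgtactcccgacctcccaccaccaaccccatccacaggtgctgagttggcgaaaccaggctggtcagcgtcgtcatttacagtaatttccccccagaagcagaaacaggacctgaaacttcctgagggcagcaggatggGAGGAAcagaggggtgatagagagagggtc
C1qc, chr4:136893066-136893164, minus strand: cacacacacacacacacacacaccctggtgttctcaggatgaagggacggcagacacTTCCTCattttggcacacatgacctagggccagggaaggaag
Mrc1, chr2:14229164-14229391, plus strand: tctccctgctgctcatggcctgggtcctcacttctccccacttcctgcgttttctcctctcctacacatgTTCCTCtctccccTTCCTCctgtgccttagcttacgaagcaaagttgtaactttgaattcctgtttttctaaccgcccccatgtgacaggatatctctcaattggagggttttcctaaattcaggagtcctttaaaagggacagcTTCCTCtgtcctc
Pf4, chr5:90772185-90772434, plus strand: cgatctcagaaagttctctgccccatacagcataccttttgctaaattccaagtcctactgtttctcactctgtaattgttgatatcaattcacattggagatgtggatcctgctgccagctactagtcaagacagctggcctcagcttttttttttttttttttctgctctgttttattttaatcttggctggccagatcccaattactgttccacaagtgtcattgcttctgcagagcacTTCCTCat
Fcer1g, chr1:171234366-171234599, minus strand: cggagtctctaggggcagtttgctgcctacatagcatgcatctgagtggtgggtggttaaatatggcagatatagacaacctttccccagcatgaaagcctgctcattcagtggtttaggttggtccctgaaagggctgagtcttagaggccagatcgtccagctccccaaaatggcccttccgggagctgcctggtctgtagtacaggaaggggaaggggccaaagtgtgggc
Mrc1 held 3 copies, C1qb, C1qc and Pf4 held 1 copy each, and Fcer1g held none in this window.

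No macrophage or leukocyte gene passed the test between mutant and control kidneys. Most were nevertheless higher in the mutant libraries: 28 of the 31 tested had a positive log2 fold change, where 49.1% of all 16933 genes tested did. The positive count was 24 of the 31 without control 1, and 26 of the 31 in the authors' deposited table. The median log2 fold change was 0.51 over the 31 genes and -0.0074 over all genes tested. The test was limma on log2(normalized count + 1), with Benjamini-Hochberg adjustment over all genes, and a gene was called at an adjusted p under 0.05. That test called 0 of the 31, against 0.307% of all genes (52), and the smallest adjusted p was 0.291, for Csf1r. At an unadjusted p under 0.05, 8 of the 31 were higher and 0 were lower, against 5.26% of all genes higher. In 8 of the 31 every mutant library exceeded every control library, which held for 7.57% of all genes. The opposite order held for 0 of the 31 and for 9.09% of all genes. The authors' deposited table called 0 of the 28 that had an adjusted p there, against 4.61% of all genes with one, and 3 had an unadjusted p under 0.05. Control 1 hardly entered the fold changes of that table, as described below. In whole-organ RNA, more cells of a type and more RNA per cell cannot be told apart.

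Levels are given as FPKM, the authors' reads scaled to gene length and library depth, in mutants 1, 2 and 3 and then in controls 1, 2 and 3. The genes were of low abundance: 18 had a mean of at least 1 FPKM over the 6 libraries, 16 were below it, and 1 (Dab2) was above 10. Libraries held 13261588 to 47847925 reads in mutants and 21644399 to 25416896 reads in controls. Control 2 stood apart from the other 5 libraries on the first principal component of all genes (score 75.8, against -24.6 to 8.49; 39.4% of variance). Transcripts of Ptch1 were 23.5, 35.8 and 29.8 FPKM in mutants and 8.26, 7.91 and 7.60 FPKM in controls (log2 fold change 1.89 ± 0.16 SE, limma adjusted p = 0.00443), which does not check the deletion, since reads outside the deleted part are counted too. The sexes were unbalanced. Xist was 0.103, 0.206 and 6.19 FPKM in mutants and 72.9, 0.0471 and 53.3 FPKM in controls, and the Y-linked Ddx3y was 16.2, 15.8 and 13.9 FPKM in mutants and 0.0598, 17.8 and 0.0177 FPKM in controls.

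**Figure D1:**
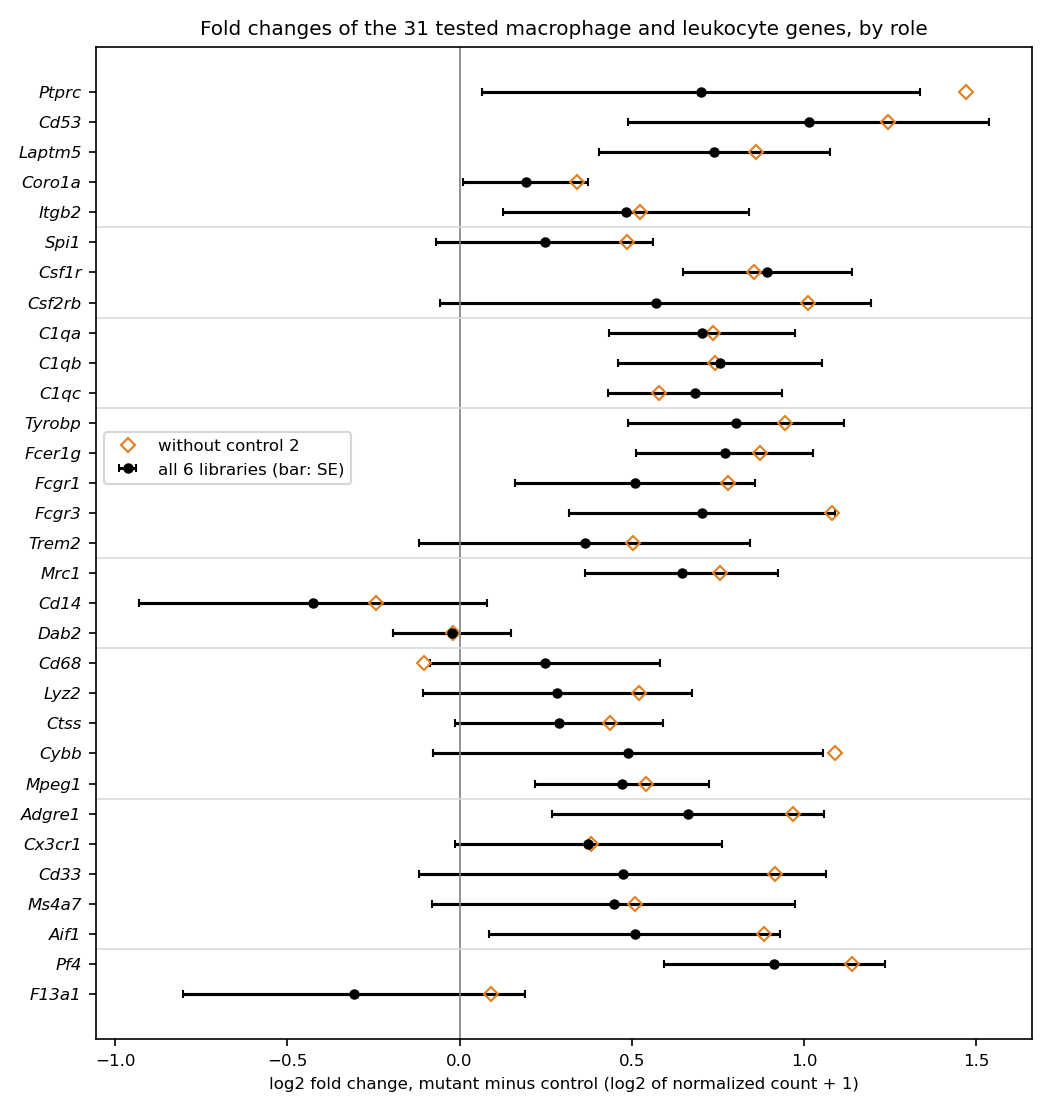
Log2 fold change (mutant minus control, log2 of normalized count + 1) of the 31 tested genes, grouped by role as in the text. Black points with bars are the fit on all 6 libraries ± SE. Open diamonds leave out control 2, which leaves no control with male levels of Ddx3y. With all libraries 28 points lie right of 0, and Cd14, Dab2 and F13a1 lie left of it.

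The macrophage growth factor receptor Csf1r had the smallest p of the 34. It measured 1.69, 1.61 and 2.69 FPKM in mutants, against 0.975, 0.984 and 1.17 FPKM in controls. The controls lay close together, and the lowest mutant exceeded the highest control. The log2 fold change was 0.89 ± 0.24 (SE, n = 3 each, limma unadjusted p = 0.00588, adjusted p = 0.291), and in the authors' deposited table it was 0.94 with an adjusted p of 0.0638. An exon of Csf1r overlaps Hmgxb3 on the other strand, and whether reads were counted by strand is not given. Spi1, which encodes PU.1, measured 1.41, 1.10 and 1.76 FPKM in mutants and 0.946, 1.65 and 1.04 FPKM in controls. Its groups overlapped through control 2, and its log2 fold change was 0.25 ± 0.31 (limma adjusted p = 0.771). Csf2rb, the shared beta chain of the receptors for GM-CSF, IL-3 and IL-5, ranged from 0.0941 to 0.303 FPKM in mutants and from 0.0481 to 0.226 FPKM in controls. Csf2rb has a near copy, Csf2rb2, which was at 0.0486 to 0.0725 FPKM in mutants and 0.0199 to 0.0441 FPKM in controls (named after its values were seen), so reads could be split between them.

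The ligands and secreted factors in the macrophage niche were examined from a list of 21 genes, of which 10 could be tested. All 10 had positive log2 fold changes, with a median of 0.43, and 4 had an unadjusted p under 0.05, but none passed the adjusted test. The CSF1R ligand Csf1 measured 2.43, 3.01 and 3.80 FPKM in mutants and 3.29, 2.23 and 3.41 FPKM in controls (log2 fold change 0.05, limma adjusted p = 0.945). The second ligand, Il34, ranged from 0.208 to 0.558 FPKM in mutants and from 0.0906 to 0.333 FPKM in controls. Tgfb1, a cytokine that many cell types make, had 15.1, 21.4 and 24.6 FPKM in mutants and 7.80, 8.48 and 10.8 FPKM in controls. Its log2 fold change was 1.16 (limma adjusted p = 0.0797), and the authors' deposited table called it (adjusted p = 5.03e-05). The lipid carrier gene Apoe was likewise called in the authors' deposited table (adjusted p = 6.36e-10) and not by limma (adjusted p = 0.127), with 55.2, 58.7 and 76.4 FPKM in mutants and 36.2, 20.2 and 33.9 FPKM in controls.

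C1q is built from equal numbers of 3 chains, encoded side by side on the minus strand of chromosome 4 (GRCm38) as C1qb (136880129 to 136886187), C1qc (136889804 to 136893065) and C1qa (136895917 to 136898803), within 18675 bases. C1qa measured 7.58, 4.887 and 8.38 FPKM in mutants and 3.35, 4.33 and 4.891 FPKM in controls. C1qb measured 6.74, 4.88 and 9.26 FPKM in mutants and 3.12, 3.89 and 5.16 FPKM in controls. C1qc measured 5.34, 4.66 and 7.49 FPKM in mutants and 3.39, 3.05 and 4.30 FPKM in controls. In all 3 genes mutant 3 was the highest library and control 3 the highest control, and mutant 2 came close to or below control 3 except for C1qc. The log2 fold changes were 0.70 ± 0.27 for C1qa, 0.76 ± 0.30 for C1qb and 0.68 ± 0.25 for C1qc (SE, n = 3 each). The unadjusted limma p-values were 0.0297, 0.0325 and 0.0254, and the adjusted ones 0.478, 0.485 and 0.459. The chains kept close to 1 ratio in every library: C1qa over C1qb was 0.905 to 1.12 in mutants and 0.948 to 1.12 in controls, and C1qc over C1qb was 0.792 to 0.955 in mutants and 0.785 to 1.09 in controls. The level of Csf1r over C1qb was also similar, at 0.250 to 0.329 in mutants and 0.226 to 0.313 in controls.

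Tyrobp and Fcer1g encode the ITAM-bearing adaptors that carry signals from Fc receptors, TREM2 and many lectins to the kinase SYK. Fcer1g measured 5.87, 4.49 and 4.87 FPKM in mutants and 2.55, 3.39 and 2.92 FPKM in controls. Tyrobp measured 5.95, 3.76 and 5.60 FPKM in mutants and 2.15, 3.47 and 3.07 FPKM in controls. For both adaptors every mutant exceeded every control. The log2 fold change was 0.77 ± 0.26 for Fcer1g (limma unadjusted p = 0.0162, adjusted p = 0.417) and 0.80 ± 0.31 for Tyrobp (limma unadjusted p = 0.0322, adjusted p = 0.485). The ratio of Tyrobp to Fcer1g was 0.837 to 1.15 in mutants and 0.843 to 1.05 in controls. The receptors that use them had overlapping groups. Fcgr3, a low-affinity receptor for IgG, had 1.86, 1.33 and 1.94 FPKM in mutants and 0.748, 1.75 and 0.816 FPKM in controls, and the high-affinity receptor gene Fcgr1 had 1.02, 0.635 and 0.783 FPKM in mutants and 0.478, 0.817 and 0.440 FPKM in controls. In both, control 2 was at more than the level of mutant 2. Trem2, a lipid receptor of microglia and tissue macrophages, ranged from 0.105 to 0.341 FPKM in mutants and from 0.153 to 0.208 FPKM in controls.

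Of 18 further genes of ITAM signalling, 17 were tested, 14 were positive and 3 negative, with a median log2 fold change of 0.23, and 0 were called by limma (1 had an unadjusted p under 0.05). The authors' deposited table called 1 of the 17 that had an adjusted p there (adjusted p = 2.37e-05). Syk, the kinase that the adaptors engage, measured 2.86, 3.18 and 3.15 FPKM in mutants and 3.02, 5.59 and 3.38 FPKM in controls (log2 fold change -0.33, limma adjusted p = 0.623).

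**Figure D2:**
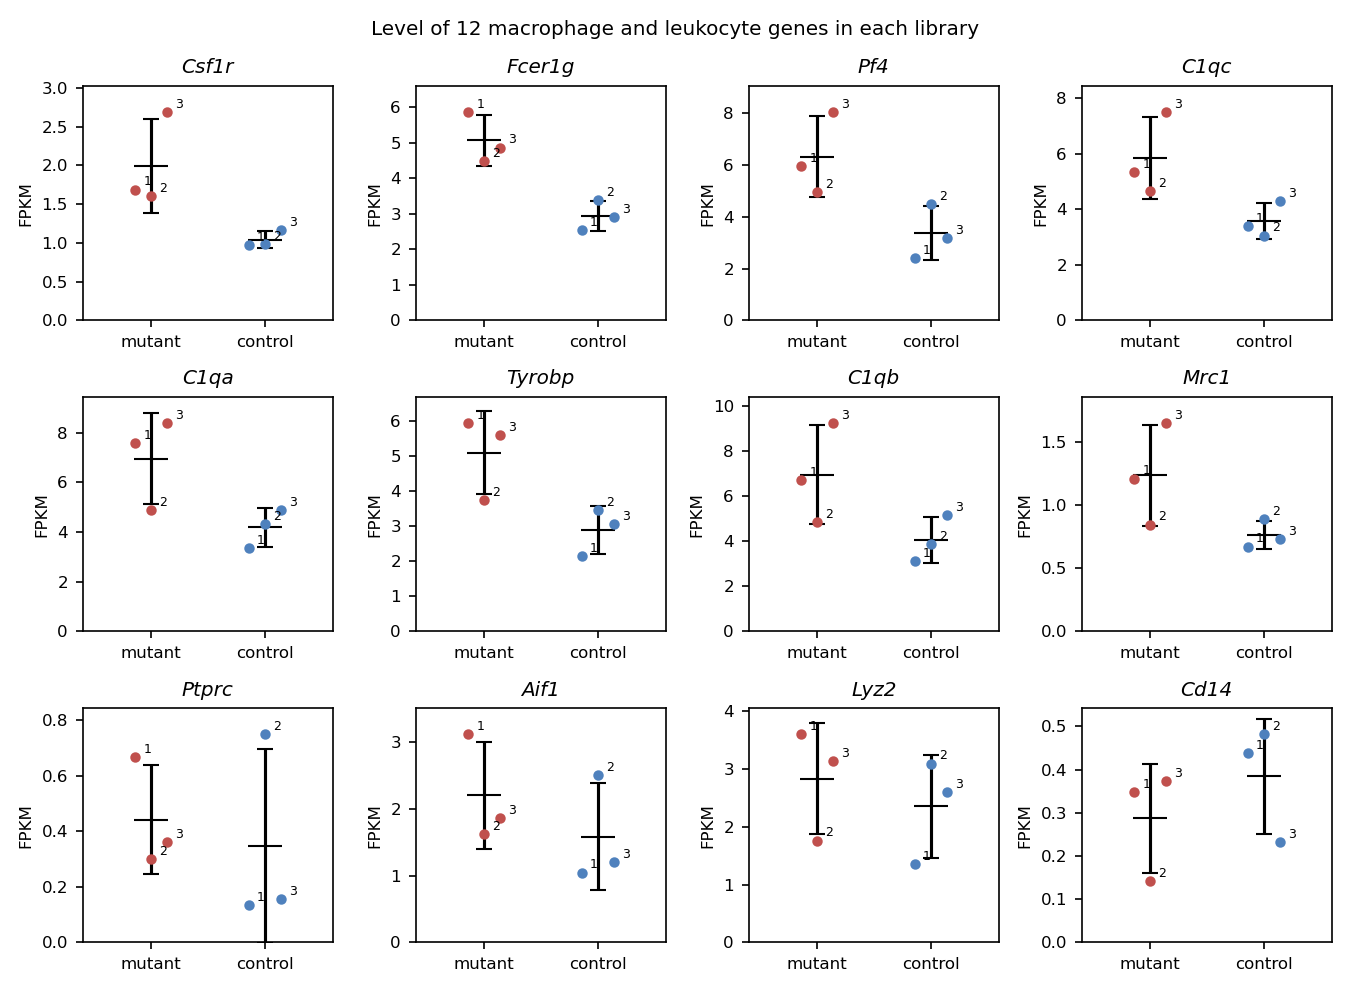
FPKM of 12 genes in each library, mutants in red left of controls in blue, with the sample number beside each point and the group mean ± SD as bars. The first 8 panels are the genes with an unadjusted p under 0.05, and Ptprc, Aif1, Lyz2 and Cd14 show cases where control 2 is the highest control and the groups overlap.

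Genes common to leukocytes had a median log2 fold change of 0.70 over 5 tested, and none had an unadjusted p under 0.05. Ptprc encodes CD45, the surface phosphatase of nucleated blood cells, and measured 0.667, 0.300 and 0.361 FPKM in mutants and 0.136, 0.750 and 0.156 FPKM in controls. Control 2 held the highest level of the 6 libraries, at 5.15 times the mean of controls 1 and 3. The exact 95% Poisson interval, which covers counting error and not the spread between embryos, was 0.616 to 0.906 FPKM in control 2 (108 reads) and at most 0.236 FPKM in control 3 (22 reads). The log2 fold change of Ptprc was 0.70 ± 0.64 (limma adjusted p = 0.683). Laptm5, a lysosomal membrane protein of blood cells, had 2.12, 2.10 and 3.87 FPKM in mutants and 1.04, 1.83 and 1.93 FPKM in controls, with no overlap (log2 fold change 0.74 ± 0.34, limma adjusted p = 0.533). Itgb2, the CD18 chain shared by leukocyte integrins, was at 0.239 to 0.277 FPKM in mutants and 0.154 to 0.192 FPKM in controls, again without overlap (log2 fold change 0.48 ± 0.36, limma adjusted p = 0.632). It had only 16, 11 and 34 reads in mutants and 10, 14 and 14 reads in controls. The 95% Poisson intervals of its lowest mutant, mutant 3 (0.166 to 0.335 FPKM), and highest control, control 3 (0.105 to 0.322 FPKM), overlapped. Cd53, a leukocyte tetraspanin, had the largest log2 fold change of the 34 genes among those tested, 1.01 ± 0.52 (limma adjusted p = 0.558), and ranged from 0.471 to 1.07 FPKM in mutants and from 0.158 to 0.514 FPKM in controls. Coro1a, an actin regulator of leukocytes, was the most abundant of the 5, at 8.06, 7.19 and 7.39 FPKM in mutants and 5.69, 8.13 and 6.20 FPKM in controls. Its log2 fold change was 0.19 ± 0.18. An exon of Coro1a overlaps Bola2 on the other strand.

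Among receptors for uptake, the mannose receptor Mrc1 (CD206) measured 1.21, 0.848 and 1.65 FPKM in mutants and 0.673, 0.891 and 0.735 FPKM in controls. Of the mutants, mutant 2 alone lay within the range of controls, and the log2 fold change was 0.64 ± 0.28 (limma unadjusted p = 0.0486, adjusted p = 0.518). Cd14, the co-receptor for bacterial lipopolysaccharide, had 0.348, 0.143 and 0.372 FPKM in mutants and 0.437, 0.482 and 0.233 FPKM in controls (log2 fold change -0.43 ± 0.51, limma adjusted p = 0.756). Timd4, a receptor for phosphatidylserine on resident macrophages, was too low to test, with 4, 0 and 12 reads in mutants and 4, 3 and 0 reads in controls. The 0 reads in mutant 2 allow up to 0.103 FPKM and those in control 3 up to 0.0562 FPKM, a limit of 3 reads that covers counting error only.

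Dab2, an endocytic adaptor, was by far the most abundant of the 34 and the one whose groups were most alike: 13.1, 15.7 and 19.5 FPKM in mutants and 14.03, 16.2 and 18.5 FPKM in controls. Its log2 fold change was -0.02 ± 0.17 (limma adjusted p = 0.970), positive in sign (0.029) under quantile normalization. Dab2 is also expressed in kidney epithelium and endothelium, so its level is not one of macrophages alone. It held 1341, 979 and 4344 of the 3849, 2163 and 10977 reads of the 34 genes in mutants, and 1428, 1891 and 2115 of 2878, 4215 and 4056 reads in controls. Without it, the other 33 genes took 119, 89.3 and 139 ppm of a library's reads in mutants, against 67.0, 93.1 and 76.4 ppm in controls, and control 2 exceeded mutant 2.

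The 5 genes of lysosomes and microbial killing had a median log2 fold change of 0.29, and none had an unadjusted p under 0.05. Cd68, a lysosomal glycoprotein, was the most abundant, with 4.56, 4.25 and 5.90 FPKM in mutants and 6.18, 2.497 and 4.40 FPKM in controls. Control 1, the lowest control for most of the 34 genes, was the highest of all libraries for Cd68, and the log2 fold change was 0.25 ± 0.33. Lyz2, the lysozyme of myeloid cells, had 3.60, 1.76 and 3.13 FPKM in mutants and 1.36, 3.09 and 2.598 FPKM in controls. Its near copy Lyz1 was not analysed here. Ctss, a protease that trims antigen, ranged from 1.65 to 2.07 FPKM in mutants and from 1.08 to 1.88 FPKM in controls. Mpeg1, a pore-forming protein of phagosomes, was at 0.830, 0.862 and 1.21 FPKM in mutants and 0.708, 0.754 and 0.601 FPKM in controls, without overlap (log2 fold change 0.47 ± 0.25, limma adjusted p = 0.565). Cybb, the X-linked catalytic subunit of the phagocyte NADPH oxidase, had 0.134, 0.142 and 0.216 FPKM in mutants and 0.0578, 0.269 and 0.0856 FPKM in controls. Its highest level was in control 2, which had male levels of Ddx3y, as did all the mutants. Among the 6 oxidase subunits listed beside it, 5 were positive and none was called, and the membrane partner Cyba measured 79.5, 61.8 and 61.4 FPKM in mutants and 52.3, 52.1 and 51.3 FPKM in controls (log2 fold change 0.37, limma unadjusted p = 0.0250, adjusted p = 0.456).

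Surface and cytoskeletal genes used to identify macrophages under the microscope were all positive where tested, and none had an unadjusted p under 0.05. Aif1 (IBA1), an actin-binding protein, had 3.12, 1.62 and 1.86 FPKM in mutants and 1.05, 2.51 and 1.21 FPKM in controls. Adgre1 (F4/80) had 0.435, 0.415 and 0.677 FPKM in mutants and 0.212, 0.479 and 0.288 FPKM in controls, with a log2 fold change of 0.66 ± 0.40 (limma adjusted p = 0.590). In both genes control 2 reached the mutant range and the other controls did not. Cx3cr1, the fractalkine receptor, measured 1.11, 0.599 and 1.92 FPKM in mutants and 0.857, 0.843 and 0.806 FPKM in controls, so its spread was in the mutants. Cd33 and Ms4a7, a sialic acid-binding lectin and a four-pass membrane protein of macrophages, reached at most 0.124 and 0.232 FPKM in mutants and 0.111 and 0.237 FPKM in controls. Itgam (CD11b) and Cd86, a T cell co-stimulator, were too low to test. Itgam had 13, 2 and 27 reads in mutants and 2, 5 and 8 reads in controls, and Cd86 had 7, 5 and 32 reads in mutants and 6, 8 and 6 reads in controls. An exon of Itgam overlaps Gm49368 on the same strand. How reads shared by them were counted is not given, so the reads of Itgam may understate its level.

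Pf4 and F13a1 encode a chemokine and a clotting factor subunit that macrophages share with platelets, and they differed in direction. Pf4 measured 5.97, 4.96 and 8.04 FPKM in mutants and 2.42, 4.48 and 3.18 FPKM in controls. Every mutant exceeded every control, and the log2 fold change was 0.91 ± 0.32 (limma unadjusted p = 0.0202, adjusted p = 0.441). F13a1 measured 1.00, 0.303 and 0.646 FPKM in mutants and 0.580, 1.262 and 0.515 FPKM in controls, a log2 fold change of -0.31 ± 0.50 (limma adjusted p = 0.822). Platelet and megakaryocyte genes other than these were low. Of 15 listed, 10 were tested, 8 were positive, 2 had an unadjusted p under 0.05, and none was called by limma. The authors' deposited table called 1 of the 9 platelet and megakaryocyte genes that had an adjusted p there (adjusted p = 0.0151). Itga2b, their integrin chain CD41, had 1.67, 1.17 and 1.69 FPKM in mutants and 1.03, 0.882 and 0.959 FPKM in controls (log2 fold change 0.64, limma adjusted p = 0.464), while Ppbp, a chemokine of platelets, had 0.168, 1.45 and 1.20 FPKM in mutants and 0.973, 0.405 and 0.676 FPKM in controls. The summed level of the 15 was 9.44 to 12.8 FPKM in mutants and 6.76 to 8.69 FPKM in controls, and their part in the level of Pf4 was not tested.

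**Figure D3:**
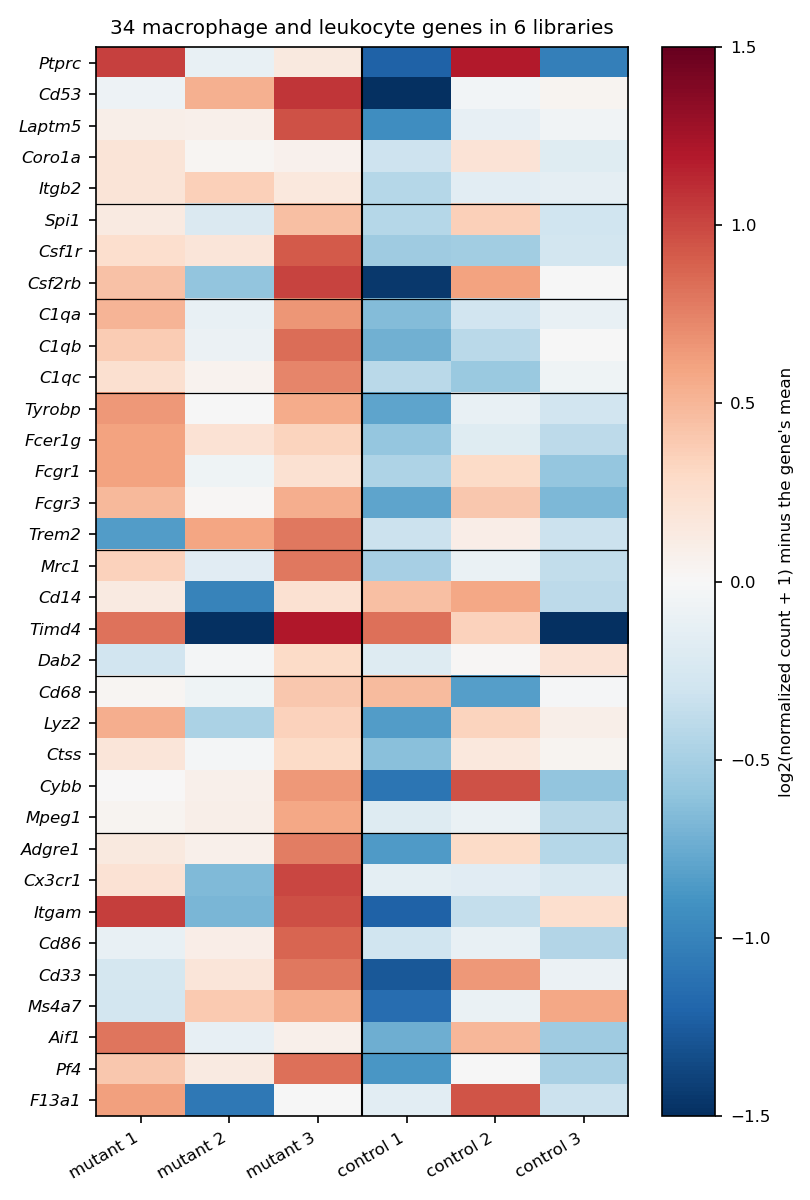
Level of each of the 34 genes (rows, by role) in the 6 libraries (columns), as log2(normalized count + 1) minus the gene's mean, with colours cut at 1.5 either way. Mutant 3 is the reddest column (highest of 6 for 20 genes) and control 1 the bluest (lowest of 6 for 23), and control 2 differs from the other controls for Ptprc and Cybb.

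Libraries of the same group differed from each other in an order that most of the genes shared. Mutant 3 was the highest mutant for 24 of the 34 genes and mutant 2 the lowest for 25. Control 2 was the highest control for 21 and control 1 the lowest for 24. Among all genes tested, those libraries held these places for 32.8%, 30.8%, 41.6% and 36.5%. Against each gene's control mean, the median deviation of the tested genes was 0.47, 0.29 and 0.90 on the log2 scale in mutants and -0.31, 0.30 and -0.0062 in controls. Mutant 2 and control 2 were thus level with each other on this measure.

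The genes fell into several combinations of highest libraries. The commonest, with mutant 3 highest among mutants and control 2 among controls, held 13 of the 34: Spi1, Csf2rb, Fcgr3, Trem2, Mrc1, Cd14, Ctss, Cybb, Mpeg1, Adgre1, Cd86, Cd33 and Pf4. The shares of all genes tested in this combination and the next are not given here. Taken singly, mutant 3 was the highest mutant for 32.8% of all genes tested. Control 2 was the highest control for 41.6% of them and control 3 for 23.9%. Another 8, Cd53, Laptm5, Csf1r, C1qa, C1qb, C1qc, Dab2 and Ms4a7, were highest in mutant 3 and control 3. Ptprc, Coro1a, Tyrobp, Fcer1g, Fcgr1, Lyz2, Aif1 and F13a1 were highest in mutant 1 and control 2. The combination of mutant 1 and control 2 thus held 8 of the 34 genes, and it held 13.9% of all genes tested. Ratios between genes of these last groups follow from where each is highest and differ in size. Csf1r over Ptprc was 2.53, 5.36 and 7.45 in mutants and 7.18, 1.31 and 7.49 in controls, lowest in mutant 1 and control 2. Tyrobp over C1qb varied much less, at 0.883, 0.770 and 0.605 in mutants and 0.690, 0.894 and 0.594 in controls. Ptprc had the widest fold range of controls among the genes with reads in all 3. A list of 8 genes of the proximal tubule was also highest in mutant 1 and control 2, with a summed level of 38.4, 10.7 and 14.7 FPKM in mutants and 12.8, 55.0 and 13.04 FPKM in controls. Fxyd2, a subunit of the sodium pump in tubules, accounted for 12.3, 1.15 and 1.49 FPKM of it in mutants and 1.16, 10.1 and 1.35 FPKM in controls. The part of nephron content in the levels of the 8 genes highest there was not tested.

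Without control 2, every mutant exceeded both remaining controls for 18 of the 34 genes, against 12.9% of all genes tested. Every mutant had Ddx3y near the level of control 2 and neither remaining control did, so sex and genotype cannot be told apart here. For 8 of the 18 every mutant already exceeded all 3 controls. Unadjusted p-values were then under 0.05 for 14 of the 31 genes tested, and none passed the adjusted test. At an adjusted p under 0.05, 158 of all genes were called, against 52 with all 6 libraries. The share of all genes at an unadjusted p under 0.05 in this fit is not given here, so the 14 have no background beside them. Ptprc had the largest change, to a log2 fold change of 1.47 ± 0.40 (limma unadjusted p = 0.00489, adjusted p = 0.179), followed in p by Pf4 at 1.14 ± 0.31 (limma adjusted p = 0.179). The count of genes with an unadjusted p under 0.05 fell to 2 without control 1 and to 2 without mutant 3, and was 4 without mutant 1.

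The deposited fold changes do not give the 3 controls equal weight. Over the 2898 genes with a mean normalized count above 2000, the authors' log2 fold change was fitted by least squares as a weighted sum of the 6 libraries' log2 values, which gave 99.8% of its variance. The weights were 0.281, 0.279 and 0.441 for mutants 1 to 3 and 0.0188, -0.557 and -0.461 for controls 1 to 3. A plain difference of group means would give the 3 controls equal weights. The same sum gave the deposited values of the 31 tested genes to a median absolute difference of 0.0214 and at most 0.09998. Control 1, the lowest control for 24 of the 34 genes, therefore hardly entered the authors' deposited table, and control 2, the highest for 21, entered most. The deposited log2 fold change was 0.09 for Ptprc, 0.73 for Pf4 and -0.05 for Cybb, against 0.70, 0.91 and 0.49 in the limma fit with equal weights. The authors' model terms are not given in the sources used here.

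**Figure D4:**
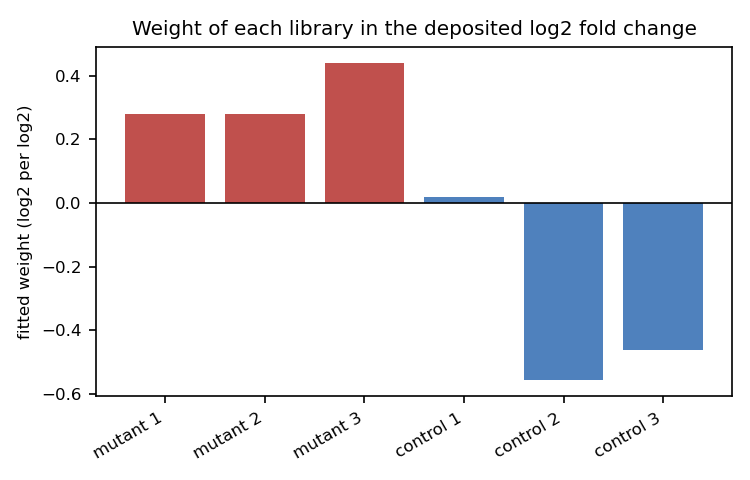
Fitted weight of each library's log2 level in the authors' deposited log2 fold change (vertical axis, log2 per log2), over 2898 genes. Controls 2 and 3 carry weights of -0.557 and -0.461, and control 1 carries 0.0188.

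Lists of related genes were read beside the 34. Of 15 myeloid transcription factors, 13 were positive and 2 negative (median 0.17), and 5 had an unadjusted p under 0.05, with Id2, Batf3, Fli1 and Maf at the smallest p. Maf, a factor of mature macrophages that acts in other tissues too, measured 14.5, 19.9 and 22.7 FPKM in mutants and 13.6, 9.36 and 14.7 FPKM in controls. Its log2 fold change was 0.60 (limma adjusted p = 0.453), and it was the 1 factor that the authors' deposited table called (adjusted p = 0.00633). Runx1 and Irf8, which act with PU.1, had log2 fold changes of 0.60 and 0.14 (limma adjusted p = 0.584 and 0.818). Of 47 further genes of resident macrophages, 32 were tested, 30 were positive, and 5 had an unadjusted p under 0.05 (median 0.36). Stab1, a scavenger receptor of macrophages and of sinusoidal endothelium, measured 5.50, 5.58 and 7.78 FPKM in mutants and 3.05, 2.11 and 3.45 FPKM in controls (log2 fold change 1.14, limma adjusted p = 0.0936), and the authors' deposited table called it (adjusted p = 5.04e-08). Of 15 genes of antigen presentation, 10 were tested, 9 were positive, and 3 had an unadjusted p under 0.05 (median 0.61). Cd74, the invariant chain, had 4.23, 3.55 and 2.43 FPKM in mutants and 1.79, 0.934 and 1.67 FPKM in controls (log2 fold change 1.22, limma adjusted p = 0.305). No gene of these lists was called by limma.

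Many markers of other white cells could not be tested, but the summed levels of 2 of these lists were not low. The monocyte and neutrophil list summed to 59.9, 31.9 and 33.8 FPKM in mutants and 24.6, 37.4 and 30.1 FPKM in controls. The list of T, B and NK cells summed to 72.7, 95.5 and 79.9 FPKM in mutants and 40.0, 39.2 and 35.8 FPKM in controls. Not all genes that make up these sums are reported here. Of 22 monocyte and neutrophil genes, 14 were in the table and 7 could be tested, none with an unadjusted p under 0.05. The neutrophil genes S100a8 and S100a9 had at most 5 and 8 reads in any mutant and 3 and 2 reads in any control. Ccr2, a chemokine receptor of monocytes, had 9, 6 and 33 reads in mutants and 0, 11 and 12 reads in controls. Of 22 genes of T, B and NK cells, 11 were in the table and 8 were tested, of which 6 were positive and 4 had an unadjusted p under 0.05. Those included Thy1 and Gata3, which kidney cells also express, and Cd79b, a chain of the B cell receptor, at 3.15, 3.03 and 2.12 FPKM in mutants and 0.832, 2.03 and 0.967 FPKM in controls. The authors' deposited table called 2 of the 6 genes of this list that had an adjusted p there (smallest adjusted p = 1.54e-05). Of 12 mast cell and eosinophil genes, 2 were tested and neither had an unadjusted p under 0.05.

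Endothelial genes were also higher in the mutants. All 18 listed were positive, with a median log2 fold change of 0.89, and 4 rose by limma (Emcn, Tie1, Esam and Cldn5, adjusted p = 0.0105 to 0.0395). The authors' deposited table called 13 of the 18. The summed level of the 18 was 484, 460 and 548 FPKM in mutants and 305, 266 and 287 FPKM in controls, with no overlap, and none was at 0 in any library. The 33 macrophage and leukocyte genes without Dab2 summed to 74.1, 56.4 and 84.9 FPKM in mutants and 41.0, 55.0 and 49.9 FPKM in controls, where mutant 2 and control 2 nearly met. Mrc1 and Stab1 are expressed by some endothelium as well as by macrophages. The part of endothelial content in the levels of these genes was not tested. Of 13 erythroid genes tested, 3 were positive and 10 negative, and 1 fell by limma (Hba-a2, log2 fold change -5.13, adjusted p = 0.0147), a globin gene whose reads can be split with its near copy Hba-a1. Of 11 genes of dissociation stress, 7 were positive and 4 negative, and all 10 cell cycle genes had negative log2 fold changes, none called.

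**Figure D5:**
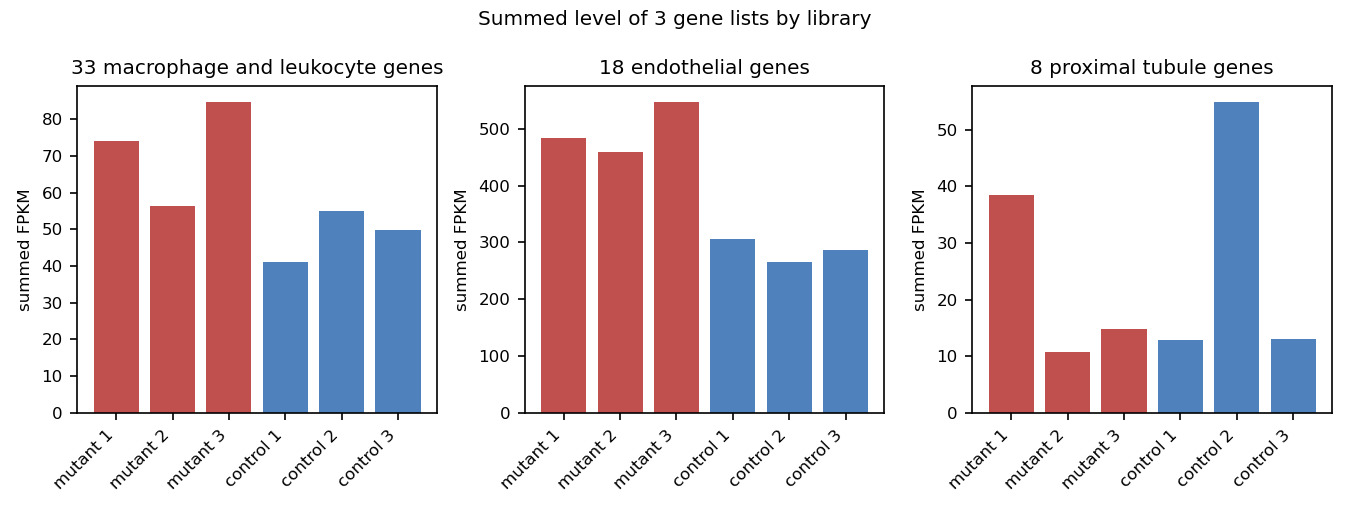
Summed FPKM of 3 lists in each library, mutants in red left of controls in blue. The 33 genes (Dab2 left out) nearly meet between mutant 2 (56.4) and control 2 (55.0), the endothelial sums do not overlap, and the proximal tubule sums are highest in mutant 1 and control 2.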

How the data were processed

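The submitters' processing notes list build mm10 and the tools DESeq2, HTSeq 0.6.1p2, STAR 2.6.0c and Trim Galore, without saying what each did. The deposited table held 22394 genes, each with at least 10 reads in all. Values of the 6 libraries were deposited as FPKM, a unit inferred from the numbers because no header states it. Further deposited columns gave, per the file headers, a mean normalized signal, a log2 fold change with its error, a Wald score, and p-values (adjusted for 15881 genes). The strand setting of the counting is not stated in the sources. Exons of 7 of the 34 genes overlap another gene.

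Multiplying FPKM by mean normalized signal over mean FPKM removed gene length. All 134364 values were then whole reads over a size factor, to within 1e-06 of a read. limma 3.58.1 (R 4.3.3) was run, with a trend on mean level and group as its one term, on log2(normalized count + 1) of the 16933 genes with at least 10 normalized counts in 3 or more libraries, which 31 of the 34 passed. Of these, 25 passed in all 6 libraries. Fold changes on this scale understate the change of low genes. Errors are SE, and unadjusted p-values are given as a description. A count model, which the recovered reads would permit, was not run. The authors' own comparison is given beside limma, but control 1 hardly entered its fold changes, so it does not replace one. Positions came from GENCODE M21 (22355 identifiers, 99.8%, matched).

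The 34 genes, the lists and the tests were chosen with earlier results of these data known. Genes given with every library's value were the most abundant of each role, those with an unadjusted p under 0.05, those too low to test and partners in a complex. From each related list, up to 4 genes of smallest p and up to 2 of highest level could be named, and other genes of those lists were named after their values were seen. Some genes of these lists are not reported here. Alternatives were other filters, pseudocounts, scales and normalizations, library weights, a block by sample number, each library left out, and the authors' table. Whether the sample numbers pair the libraries is not known.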

Additional observations from a re-analysis of the deposited data

How the results depend on the processing

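No alternative called any of the 34 genes. Their count at an unadjusted p under 0.05, 8 as reported, was 5 under quantile normalization, 14 with limma library weights and 3 in the authors' deposited table, and 2 to 14 with a library left out (4 without mutant 1, 2 without mutant 3, 2 without control 1 and 14 without control 2). The share of all genes at an unadjusted p under 0.05 is not given for these alternatives. All genes called at an adjusted p under 0.05, 52 as reported, were 380 with library weights, 732 in the authors' deposited table, and 9 to 158 with a library left out. No library-out fit called any of the 34 (0 to 0). The median log2 fold change, 0.51 as reported, was 0.199 on log2(FPKM + 1), which shrinks low levels by construction, and 0.39 to 0.74 with a library left out. Signs turned for Dab2 under quantile normalization (0.029) and, in the authors' deposited table, for Cybb (-0.050) and Cd33 (-0.032). With a library left out they also turned for Dab2 (-0.17 to 0.12), F13a1 (-0.69 to 0.15), Cx3cr1 (-0.036 to 0.80), Csf2rb (-0.011 to 1.01), Lyz2 (-0.064 to 0.59), Cd33 (-0.045 to 0.92), Ms4a7 (-0.015 to 0.85) and Cd68 (-0.10 to 0.54), and the cause was not tested. Same-number correlations of deviations were 0.00081, -0.098 and 0.309. They did not show a pairing by sample number, and with 3 libraries in each group they cannot exclude one. With the replicate block 17 of all genes were called, and 0 of the 34 were called, with 8 at an unadjusted p under 0.05. A filter at 1 FPKM tested 16 of the 34. Depth limits the lowest genes: 3 of the 34 were untested.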
